A study of Drosophila melanogaster with 4 samples.

Results

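Hsp26, l(2)efl, stv and DnaJ-1 are the 4 genes of small heat shock proteins and heat-inducible co-chaperones described here, and their transcripts were compared between cold-shocked and untreated adult male fruit flies. They were chosen as the spots whose single gene symbol in the platform annotation was one of these 4 names. On the 12k design this gave 24 of 27648 spots and 4 of 6793 named genes. On the 7k design of the pilot it gave 18 of 16896 spots, from stv and DnaJ-1.

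The cold-shocked males were kept for 2 h at 0 ± 0.5 °C and then given 30 min at 25 °C. The untreated males were co-reared with them and stayed at 25 °C. Both groups were whole males of the dp cn bw cl strain, 6 to 7 days after eclosion by the age label, although another label of array 1 reads 5 to 7 days for the cold-shocked males. The number of flies per sample is not given in the sources used here. Each of 3 arrays of the 12k design carried cold-shocked RNA in Cy5 and untreated RNA in Cy3 from a separate, independent pair of fly samples. A single pilot array had the dyes the other way round.

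Small heat shock proteins share an alpha-crystallin domain and hold unfolding proteins in a soluble state without using ATP. Hsp70 chaperones then refold such clients, with the help of J-domain proteins that deliver clients and stimulate the Hsp70 ATPase, and of BAG-domain proteins that release the bound nucleotide. In flies, heat shock factor activates many of these genes when proteins unfold, and several of them are transcribed while insects recover from cold. Hsp26 encodes a small heat shock protein that is also made in the female germ line without stress. The gene l(2)efl encodes a relative of alphaB-crystallin, stv (starvin) encodes the BAG-domain protein that keeps muscle sarcomeres intact, and DnaJ-1 encodes the main heat-inducible Hsp40.

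All values were taken as log2 ratios. Neither the base of the logarithm nor the direction is stated in the files. For the 12k arrays the channel numbers, the dyes and the treatments point one way, so positive values likely mean more transcript in cold-shocked flies. Treatment and dye cannot be told apart on these arrays, since all 3 had the same dye orientation. The array medians were −0.13, 0.03 and 0.03. The files used here hold no intensities, so neither the level of a transcript nor the distance of a spot from background could be given. In whole flies, fewer cells of a type and less RNA per cell cannot be told apart.

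Hsp26 had the largest mean ratio of the 4 genes, and stv, averaged over its 2 printed pairs, had the smallest SD between arrays. The means of l(2)efl and DnaJ-1 lay below 0, with both signs among their arrays. Hsp26 stood 1.76-fold and stv 1.46-fold higher in cold-shocked than in untreated flies on average. In the limma fit over 19325 features, 0 of the 4 genes passed an adjusted p of 0.05, as did 0% of all features. At an unadjusted p of 0.05, limma gave 2 of the 4 genes, both higher, where 1.49% of all features were higher and 3.3% lower. Neither gene stayed under that unadjusted p when arrays 1 or 2 were left out or when a fold of 1.2 was tested against. Both had positive ratios on all 3 arrays, as did 12.6% of all features. None of the 4 was below 0 on all 3, against 15.1% of all features.

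**Figure D1:**
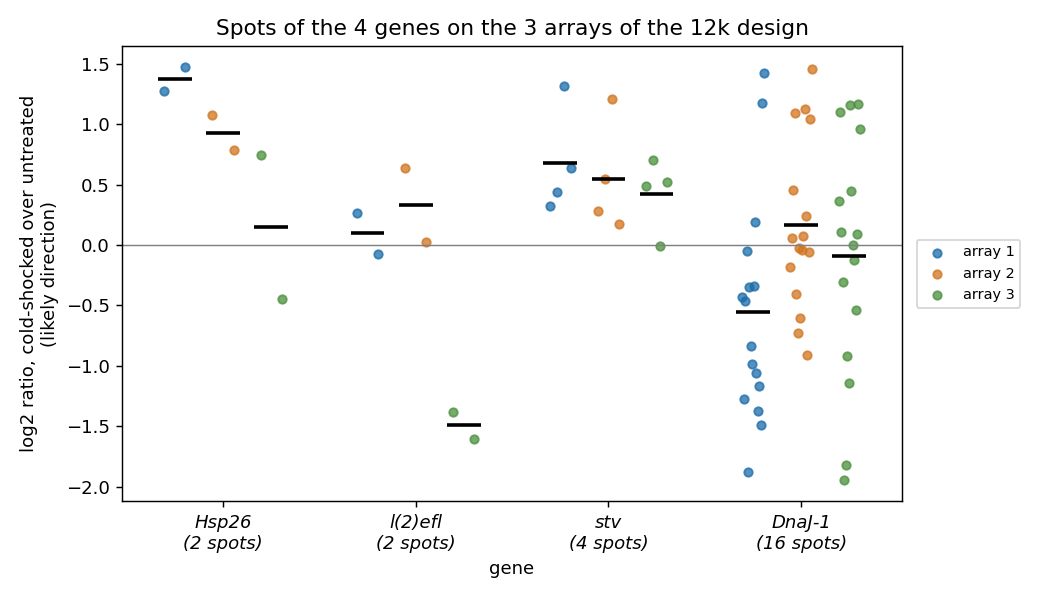
Log2 ratio (y axis) of every spot of the 4 genes (x axis), with a column of points for each of the 3 arrays of the 12k design and a bar at the mean over spots. The Hsp26 bars lie at 1.37, 0.93 and 0.15, the stv bars lie between 0.42 and 0.68, both l(2)efl spots of array 3 lie below −1.3, and the 16 DnaJ-1 spots spread over both sides of 0 on each array.

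Hsp26 was printed as 1 pair of neighbouring spots. Its ratios were 1.27 and 1.48 on array 1, 1.07 and 0.79 on array 2, and 0.75 and −0.45 on array 3. The pair agreed within 0.28 on arrays 1 and 2 and differed by 1.196 on array 3, where one spot was above 0 and its partner below.

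Averaged over the pair, Hsp26 was at 1.37, 0.93 and 0.15 on arrays 1 to 3, with a mean of 0.82 ± 0.62 (SD, n = 3). The 95% interval of the limma fit ran from 0.13 to 1.51, or from 1.09-fold to 2.84-fold. The limma unadjusted p was 0.0261 and the adjusted p over all features 0.853. Among the named genes Hsp26 lay at the 99.5 percentile on array 1, at the 99.1 percentile on array 2 and at the 62.5 percentile on array 3. Its high position was thus seen on arrays 1 and 2. The mean was 0.54 without array 1, 0.76 without array 2 and 1.15 without array 3, with limma unadjusted p of 0.136, 0.0917 and 0.00918. In mean ratio, 36 of the 6793 named genes stood above it.

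The other small heat shock gene, l(2)efl, did not share this pattern. Its 2 spots read 0.26 and −0.07 on array 1, 0.63 and 0.02 on array 2, and −1.38 and −1.61 on array 3. Both spots of array 3 lay far below the others, and the pair differed by only 0.23 there. The array values of 0.10, 0.33 and −1.49 averaged −0.36 ± 0.99 (SD, n = 3), with a 95% interval from −1.25 to 0.53 and a limma adjusted p of 0.884. The gene fell at the 71.7, 83.03 and 1.96 percentiles of named genes on arrays 1 to 3. Array 3 decided the sign of its mean, which was 0.21 without that array. As an alternative, the median of the surrounding spots on the array was subtracted, and the value on array 3 was then −0.96 and the mean −0.21.

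Set against each other within an array, Hsp26 exceeded l(2)efl by 1.28, 0.60 and 1.64 in log2 ratio on arrays 1 to 3. The mean difference was 1.17 ± 0.53 (SD, n = 3), positive on 3 of 3 arrays. The exact two-sided sign-flip permutation test gave p = 0.25, which is the smallest p that 3 arrays allow. The remaining small heat shock gene measured, CG7409, stood at −0.12, 0.16 and 0.02, with a mean of 0.02 ± 0.14 (SD, n = 3). These 3 were measured out of 11 small heat shock genes listed. In RefSeq order Hsp26 lies within a cluster of such genes, next to CG4461, Hsp67Ba, Hsp22, Hsp23, Hsp27 and Hsp67Bc. None of these neighbours had a spot of its own under a single symbol on the 12k design.

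**Figure D2:**
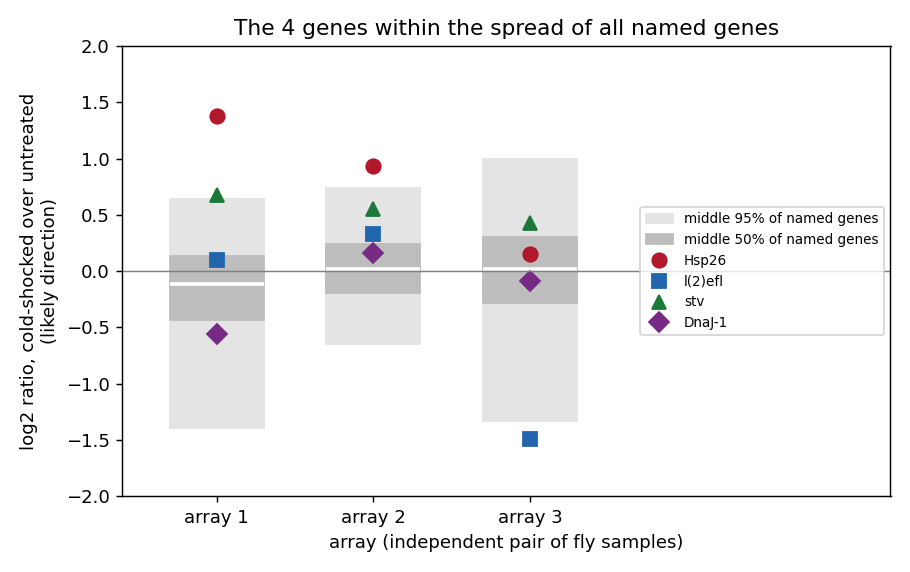
Log2 ratio (y axis) of the 4 genes on each 12k array (x axis), over grey boxes that hold the middle 95% and the middle 50% of the 6793 named genes, with a white line at their median. Hsp26 lies above the wider box on arrays 1 and 2 and inside the narrower box on array 3, stv lies at the upper edge of the wider box on array 1 and inside its upper part on arrays 2 and 3, and l(2)efl lies below the wider box on array 3.

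The BAG-domain gene stv was printed as 2 pairs of spots. The first pair averaged 0.38, 0.41 and 0.60 on arrays 1 to 3, and the second averaged 0.97, 0.69 and 0.25. Of the 12 spot values, 11 were above 0, and the exception was −0.01 on array 3. The pairs ordered the arrays in opposite ways, the first being lowest on array 1 and the second lowest on array 3.

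Over its 4 spots, stv stood at 0.68, 0.55 and 0.42, with a mean of 0.55 ± 0.13 (SD, n = 3). The 95% interval ran from 0.03 to 1.07, or from 1.02-fold to 2.11-fold. The limma unadjusted p was 0.0422 and the adjusted p over all features 0.853. With the median over its 4 spots in place of the mean the unadjusted p was 0.0629, and it ran from 0.0629 to 0.142 when any 1 array was left out, so the unadjusted call ended in each case. The SD of stv was smaller than that of most named genes, with 9.88% of them lower and a median of 0.34. The gene lay at the 97.9, 94.1 and 82.5 percentiles of named genes. Ranked by the lowest of the 3 array values, 24 named genes stood above stv, and 295 above Hsp26. This rank set an average of 2 pairs for stv against 1 pair for Hsp26. The lowest averaged stv value, 0.42, lay above the lowest value of either pair, 0.38 and 0.25. Taken alone, the first stv pair had an SD of 0.12 over the arrays and the second 0.36. With the surrounding median subtracted, stv was at 0.86, 0.51 and 0.32. Its SD was then 0.27, larger than the 0.17 of DnaJ-1.

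DnaJ-1 was printed as 8 pairs, or 16 spots, and these gave unlike ratios. Spot values ran from −1.88 to 1.42 on array 1, from −0.91 to 1.46 on array 2 and from −1.95 to 1.17 on array 3. Above 0 lay 3, 8 and 9 of the 16 spots. The averages of −0.56, 0.16 and −0.09 therefore combine ratios of both signs. Their mean was −0.16 ± 0.36 (SD, n = 3), with a 95% interval from −0.74 to 0.42 and a limma adjusted p of 0.919.

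The printed pairs of DnaJ-1, numbered here from 1 to 8 in the order of their spots, fell into different ranges, as a fit with every printed pair as its own feature showed. This fit was chosen after seeing the data, and so were the pairs named from it. Pair 8 stood at 1.299, 1.25 and 1.06 on arrays 1 to 3, a mean of 1.204 ± 0.12 (SD, n = 3), or 2.30-fold higher in cold-shocked than in untreated flies. Its 95% interval ran from 0.73 to 1.68. The limma unadjusted p was 0.000534, and the adjusted p over 13824 printed pairs was 0.837. Only 3 of the 13824 pairs, this one included, were at or above its lowest value on all 3 arrays.

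Pairs 3, 4 and 7 stood on the other side on every array. Pair 3 was at −1.12, −0.57 and −1.89, a mean of −1.19 ± 0.66, pair 4 averaged −0.75 ± 0.38 and pair 7 averaged −0.68 ± 0.58 (SD, n = 3 arrays each). Their limma unadjusted p were 0.00404, 0.0135 and 0.0377, with an adjusted p of 0.837 for each. The other 4 pairs had means between −0.20 and 0.25 and both signs among their arrays. Of all printed pairs, 12.5% were above 0 on all 3 arrays and 15.8% below, 1.36% were higher and 3.69% lower at a limma unadjusted p of 0.05, and 0% passed limma's adjusted p of 0.05.

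Without pair 8 the remaining 7 averaged −0.82, 0.01 and −0.25 on arrays 1 to 3, a mean of −0.36 ± 0.42 (SD, n = 3). Pair 8 exceeded the average of the others by 2.12, 1.24 and 1.32, and exceeded the next highest pair by 1.37, 0.47 and 0.26. With the surrounding median subtracted pair 8 was at 1.202 and pair 3 at −1.02, so their separation was not removed by that step.

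The SD between the 8 DnaJ-1 pairs was 0.87 on array 1, 0.66 on array 2 and 1.00 on array 3. Of the 8 named genes with at least 4 printed pairs, DnaJ-1 had the largest such SD on arrays 1 and 3 and the second largest on array 2, and the median gene had 0.44, 0.31 and 0.51. The tables used here give no clone or sequence for these spots, so which part of the transcript each pair holds was not analysed here.

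**Figure D3:**
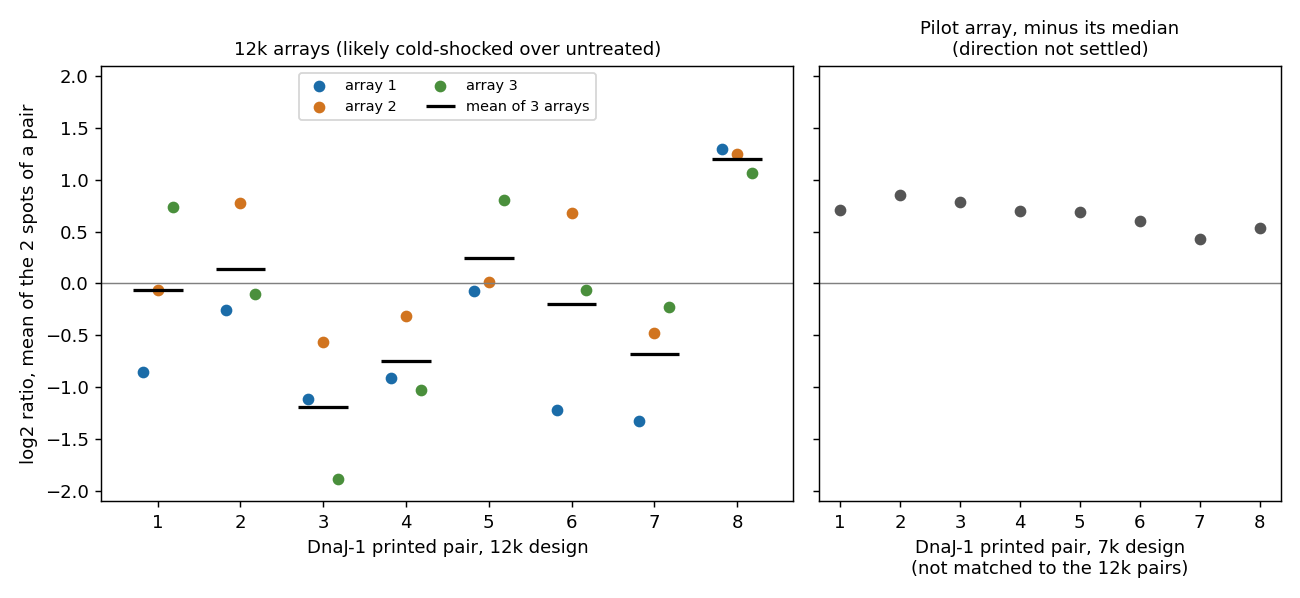
Log2 ratio averaged over the 2 spots of each DnaJ-1 printed pair (x axis), on the 12k arrays at left with a bar at the mean of 3 arrays, and on the pilot at right relative to that array's median. On the 12k arrays the pair means run from −1.19 to 1.204, while on the pilot all 8 pairs lie between 0.43 and 0.85.

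On the pilot, stv had 1 printed pair and DnaJ-1 had 8, and Hsp26 and l(2)efl had no spot under a single symbol. The pilot's direction is not settled, since the dye, channel and treatment conventions disagree for it, so its values are given as deposited and would take the opposite sign under the opposite reading. The pilot had no replicate. The 2 stv spots read 0.85 and 0.75, against an array median of 0.40, which places the gene 0.39 above that median and at the 71.6 percentile of the named genes.

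The 16 DnaJ-1 spots read from 0.69 to 1.59 on the pilot and were all above its median, as 50% of spots are by construction. Their mean was 0.66 above it, at the 83.6 percentile of named genes. The SD between the 8 pairs was 0.14, the 30th largest among 31 genes with at least 4 pairs, where the median was 0.35. Relative to the array median, the DnaJ-1 pairs thus lay close together on the pilot, and they lay far apart on the 12k arrays. With the surrounding median subtracted instead, the pilot pairs spread more widely, from 0.21 to 1.16. Whether the same clones were printed on both designs was not analysed here. With the pilot's sign as deposited, stv had the sign of its 12k mean, and DnaJ-1 had the sign opposite to its 12k mean of −0.16.

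Partners of these genes were described from lists chosen by function. Among J-domain protein genes, the family of DnaJ-1, 31 of 37 listed were measured and 0 passed limma's adjusted p of 0.05 in either direction. At a limma unadjusted p of 0.05 there were also 0, where 62 of the 6793 named genes were higher and 175 lower. The median of their mean ratios was 0.07, against −0.05 for all named genes. Above 0 on all 3 arrays were 6 of the 31, and below on all 3 were 4, where the shares for named genes were 12.5% and 16.9%.

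The 3 J-domain genes with the largest absolute means were CG7130 at −0.52 ± 0.98, shv at 0.52 ± 0.41 and aux at −0.49 ± 0.52 (SD, n = 3). The protein encoded by aux, auxilin, recruits Hsc70 to uncoat clathrin vesicles, and that of shv is a secretory-pathway J-domain protein. CG7130 was at −1.65 on array 1 and at 0.11 and −0.03 on arrays 2 and 3, so array 1 set its mean.

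Of the genes listed as BAG-domain and other co-chaperones of Hsp70 and Hsp90, 13 of 22 were measured, and 0 passed. The list was used as drawn up, and whether TORIP and Gp93 belong on it was not examined here. Besides stv, the largest absolute means belonged to CG1416, related to the Hsp90 activator Aha1, at 0.48 ± 0.41, and to Sgt, a tetratricopeptide co-chaperone, at 0.48 ± 0.22 (SD, n = 3). CG1416, Sgt, stv and CG10973 were the 4 of 13 above 0 on all 3 arrays, while TORIP was below on all 3, against 12.5% and 16.9% of named genes. CG10973 is named after its values were seen and averaged 0.42. The list's median was −0.000517, against −0.05 for all named genes, and 6 of the 13 had means above 0.

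**Figure D4:**
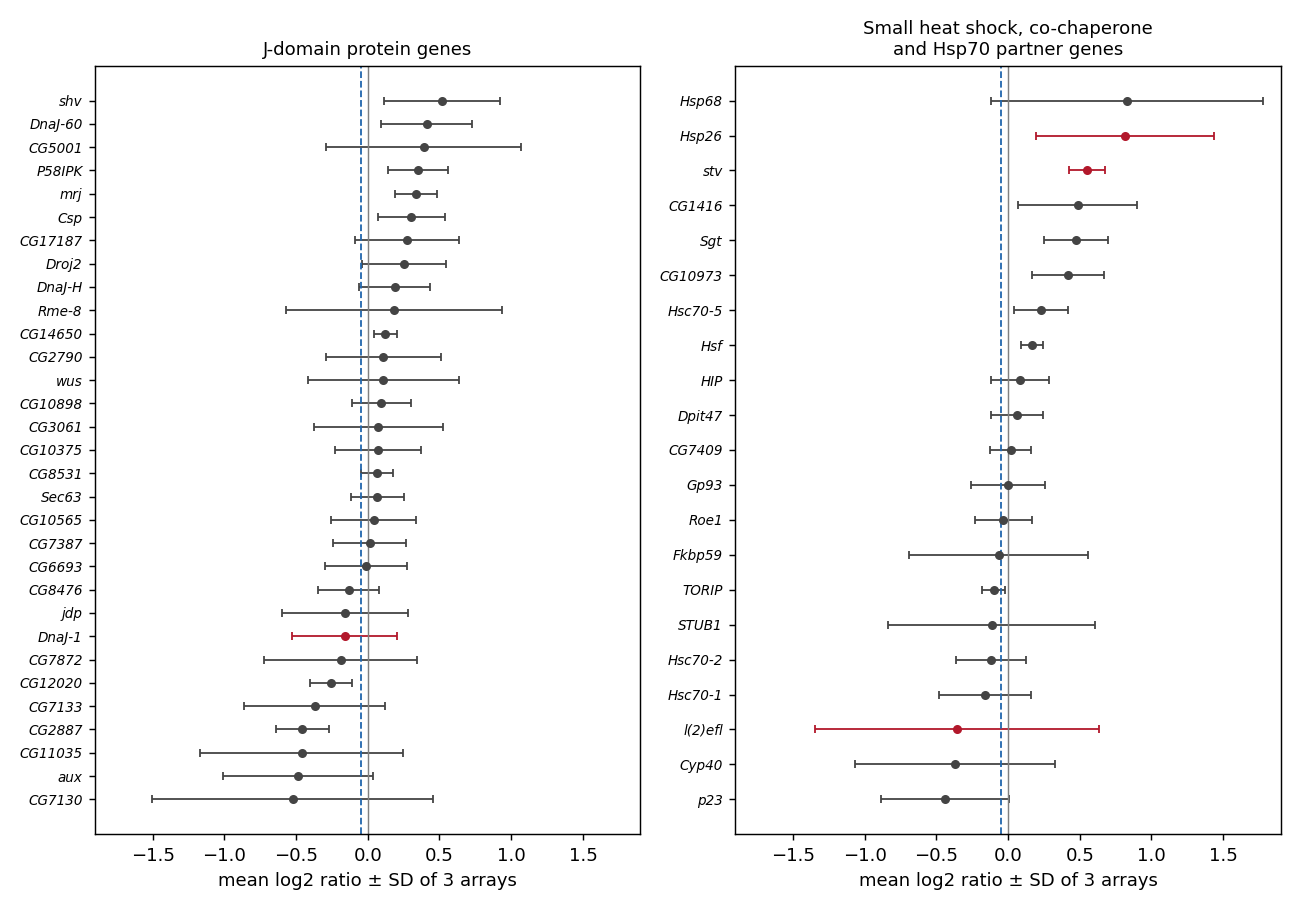
Mean log2 ratio over the 3 arrays of the 12k design with its SD (x axis) for the measured genes of the J-domain list at left and of the small heat shock, co-chaperone and Hsp70 partner lists at right (y axes), with the 4 genes in red, a grey line at 0 and a dashed line at the median of named genes, −0.05. Hsp68, Hsp26 and stv have the highest means at right, while DnaJ-1 and l(2)efl lie below 0 with SDs that reach across it.

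Of the Hsp70 and Hsp90 partners with the heat shock factor gene, 5 of 16 were measured and 0 passed. Hsp68, which encodes an inducible Hsp70, stood at 1.82, 0.73 and −0.07. Like Hsp26 it was highest on array 1 and lowest on array 3. So were the spots shared by Hsp70Aa and Hsp70Ab, which averaged 0.72, 0.17 and −0.20 but read 0.10 and −0.49 on array 3. Hsc70-5 also had this order, at 0.35, 0.32 and 0.01, while Hsf, Hsc70-1 and Hsc70-2 did not. The share of named genes with this order is not given here. Hsf itself was at 0.08, 0.19 and 0.22, with a mean of 0.17 ± 0.08 (SD, n = 3), and the mitochondrial Hsc70-5 averaged 0.23 ± 0.19. The 3 measured of 7 chaperone-assisted autophagy genes, the pathway in which stv takes part, were stv, STUB1 at −0.11 ± 0.72 and ref(2)P at 0.14 ± 0.60 (SD, n = 3).

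The genes most like each member were taken as those with the smallest root mean square difference in log2 ratio over the 3 arrays, among 6792 other named genes. For Hsp26 these were Smyd4-2, CG1789 and CG10214, at differences of 0.0799, 0.205 and 0.222. For l(2)efl they were Map60, CG16749 and CG14411, at 0.0251, 0.120 and 0.129. For stv they were Dic3, CG10513 and CG15043, at 0.0856, 0.0898 and 0.0976, and for DnaJ-1 they were CG5639, Stam and CG8132, at 0.0255, 0.0425 and 0.0426. The DnaJ-1 values compared were averages over printed pairs whose means ran from −1.19 to 1.204. Whether any single pair resembled those genes was not tested. Hsp26 and stv differed by 0.487, and 0.442% of named genes were closer to Hsp26 than stv was, while 18.5% were closer to stv than Hsp26 was. Hsp26 and l(2)efl differed by 1.25, with 73.4% of named genes closer to Hsp26 and 86.0% closer to l(2)efl.

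Ratios of female marker genes were mostly negative on the same arrays. Of 9 measured, 5 were below 0 on all 3 arrays, against 16.9% of named genes, and the median of the 9 means was −0.45, against −0.05. Those 5 were Yp1, Yp2, Yp3, dhd and osk, while yl and otu had mixed signs with means of −0.22 and −0.18, and swa and fs(1)N had means of 0.16 and 0.25. The yolk protein gene Yp1 stood at −4.22, −2.32 and −1.40 and the oocyte gene dhd at −2.60, −2.78 and −1.75. Yp1 was furthest from 0 on array 1 and dhd on array 2. Whether the female marker genes bear on the ratios of the 4 genes was not tested. Of 9 measured muscle genes, 0 were above 0 on all 3 arrays and 0 below, against 12.5% and 16.9% of named genes, with a median of 0.11 and Mlc2 highest at 0.49. The medians of 6 testis and 2 accessory gland genes were 0.06 and 0.06. One testis gene, Prosalpha4T1, was at −0.71, −0.41 and −0.75, the largest absolute mean of its list.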

How the data were processed

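For each spot the authors deposited a single log ratio between the channels, made from normalized data, per the labels. How the images were quantified, background-corrected and normalized is not given in the sources used here, nor is the base of the logarithm. The deposited values were taken as log2 because the lowest values, −14.57 on 12k array 1 and −12.29 on the pilot, exceed the natural log of a 16-bit range, 11.09, in size. All folds rest on that.

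Spots were named from the platform annotation, and 14894 of the 15116 spots with 1 symbol on the 12k design were found in RefSeq Release 6. A gene's value on an array was the mean over its spots, and spots without a single symbol entered one by one. A two-sided moderated test of the mean against 0 was fitted (limma 3.58.1, lmFit and eBayes, under R 4.3.3), and p-values were adjusted over 19325 features by the Benjamini-Hochberg method. The fit was run on simulated data with known changes, as a check that it returned their means. Changes as small as those of Hsp26 and stv were not simulated. The number of arrays limits the precision. Differences between members used exact sign-flip tests (scipy 1.17.1). A printed pair is an odd spot and the next even one.

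The members, lists and alternatives were chosen with earlier results of these data known. Genes were named by rule: the 4 members, the 3 genes most like each, of each chaperone list the 3 with the largest absolute mean, all small heat shock genes, and Hsp68, Hsp83, Hsf and Hsc70-4 where measured, which left out Hsp83 and Hsc70-4. Other named genes were picked after their values were seen or are neighbours or cell type markers, to which the rule did not apply. The entries CG9796 and CG6327 were left out of the co-chaperone list, since RefSeq names them as other genes. Protein, promoter and probe sequences were not analysed here.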

Additional observations from a re-analysis of the deposited data

How the results depend on the processing

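No feature passed limma's test under any of 14 alternatives, where the smallest adjusted p ran from 0.184 to 1.00. The count at an unadjusted p of 0.05 was 924 of 19325 features. It ran from 335 against a fold of 1.2 to 1323 of 27648 with every spot as its own feature. In the 6793 named genes alone it was 387, without array 3 it was 597 and without array 2 it was 1208. Hsp26 stayed above 0 under 12 alternatives and stv under 14, with means from 0.54 to 1.18 and from 0.31 to 0.79. Many of these alternatives could not turn the sign. They changed only the test, the features tested or the scale, or left out 1 array of a gene that was positive on every array. The unadjusted limma p of Hsp26, 0.0261, was 0.0528 against a fold of 1.2 and that of stv, 0.0422, was 0.122, and stv was also at 0.0629 with the median over spots and 0.192 with the pilot turned. Leaving out 1 array gave unadjusted p of 0.00918 to 0.136 for Hsp26 and 0.0629 to 0.142 for stv. The highest means came from reading the deposited values as natural logs, and the lowest of stv from adding the pilot with its sign turned. Leaving out 1 array gave 0.54 to 1.15 for Hsp26, 0.49 to 0.61 for stv, −0.70 to 0.21 for l(2)efl, −0.32 to 0.0365 for DnaJ-1 and 0.94 to 1.46 for Hsp26 minus l(2)efl. The sign of l(2)efl turned to 0.21 without replicate 3, and that of DnaJ-1 to 0.0365 without replicate 1 and to 0.0448 with the pilot added as deposited. DnaJ-1 was at −0.03 with the surrounding median subtracted. The count of features that exceeded 1.5-fold on every array with one sign was 86, none of them one of the 4 genes. It became 15 in the named genes alone, 28 with printed pairs in place of single unnamed spots, 177 with every spot apart, 450 at 1.3-fold, 7 at 2-fold, and 407 to 912 without one replicate, where 2 arrays had to pass. On the pilot, stv became 0.80 with the array median kept, 0.71 with the surrounding median subtracted and −0.39 with the sign turned, and DnaJ-1 became 1.07 with the array median kept and −0.66 with the sign turned, by construction. The pairing of cold-shocked and untreated flies is built into each ratio, so the limma test of the ratios against 0 already used it. No further paired analysis was run, and the pilot stands alone. Every printed pair as its own feature was an alternative chosen after seeing the data.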
